A study of Mus musculus with 8 samples.

Results

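The quantity described here is the difference between 2 hairpin responses in the mouse prefrontal cortex: the change seen with a virus carrying a hairpin against Pogz, minus the change seen with a virus carrying a hairpin against Adnp. Each response was taken against its own pair of GFP controls, so the difference is (shPogz minus Pogz-set GFP) minus (shAdnp minus Adnp-set GFP). All 23393 named genes of the count table were members, which is every named gene of the series, and 17415 of them passed the filter on low counts and were tested. A positive difference means that the shPogz response was the higher of the 2, and a negative one that the shAdnp response was. The difference is on the log2 scale and contains the spread of all 8 libraries, so its median standard error over genes was 0.24, against 0.17 for either response alone.

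The mice were C57BL6/J, 6 to 8 weeks old, and every group had received AAV9, an adeno-associated virus that reaches brain cells. The 4 groups of 2 libraries each were AAV9-GFP controls of the Adnp set, AAV9 hairpin against Adnp (shAdnp), AAV9-GFP controls of the Pogz set, and AAV9 hairpin against Pogz (shPogz). Groups were taken from the titles, which give Adnp or Pogz; in both hairpin groups the treatment label instead reads shRNA_ASH1L-AAV9. The labels call the libraries biological duplicates and do not say which promoter drove the hairpins or how many cells carried them. The design text speaks of 3 knockdown animals, and 2 libraries per group were analysed here. Anything that separates the 2 sets to the same extent in controls and hairpin libraries cancels in the difference; anything that affected only 1 group of a set (its handling, dissection or virus preparation) and the hairpin itself cannot be told apart.

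Total counts in named genes ran from 27501722 to 69002749 per library. The ribosomal precursor transcript Rn45s took 7.62% of the first shAdnp library and 0.134% to 0.740% of the others. In multidimensional scaling, axis 1 accounted for 52.3% of the variation between libraries and ran from the first Adnp-set control (-2.47) to the second shPogz library (2.15), so an end of that axis lies in each response. Levels below are in CPM (read counts per gene scaled to a common library size by the trimmed mean of M-values), given in the order library 1, library 2. The cortical excitatory marker Slc17a7 was present in every library, at 741 to 1173 CPM. This is bulk tissue, so fewer cells of a type and less RNA per cell cannot be told apart.

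ADNP and POGZ are zinc-finger proteins that bind heterochromatin protein 1 and work in chromatin complexes that keep genes and repeats silent; both genes are known from neurodevelopmental disorders with autism. In type I interferon signalling, RNA sensors in the cytosol lead to interferon release, interferon receptors activate a complex of STAT and IRF factors, which binds the interferon-stimulated response element in the promoters of antiviral genes. A second programme, the integrated stress response, works through the factor ATF4, which binds a different element in the promoters of amino acid and stress genes.

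The promoters of 4 genes of the interferon and ATF4 programmes are shown because the genes' differences are described below; each is the 250 bases before the RefSeq start site (GRCm38.p6, the assembly of mm10), on the gene's own strand. Capitals mark matches, on either strand, to the interferon element (GAAA and GAAA with 2 bases of any kind between them) in Rsad2, chr12:26456453-26456702 (- strand), and Ifit1, chr19:34640639-34640888 (+ strand). In Chac1, chr2:119350992-119351241 (+ strand), and Asns, chr6:7693210-7693459 (- strand), they mark the ATF4 element TGATGNAA.
Rsad2: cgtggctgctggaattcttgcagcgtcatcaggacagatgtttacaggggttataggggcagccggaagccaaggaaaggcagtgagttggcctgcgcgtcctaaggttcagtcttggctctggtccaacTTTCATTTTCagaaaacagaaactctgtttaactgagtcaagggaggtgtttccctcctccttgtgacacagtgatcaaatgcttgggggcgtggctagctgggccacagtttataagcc
Ifit1: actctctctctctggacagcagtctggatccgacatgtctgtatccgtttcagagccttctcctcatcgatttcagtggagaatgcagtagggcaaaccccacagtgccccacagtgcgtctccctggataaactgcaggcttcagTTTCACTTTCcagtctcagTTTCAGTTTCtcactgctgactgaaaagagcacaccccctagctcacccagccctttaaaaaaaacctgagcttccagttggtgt
Chac1: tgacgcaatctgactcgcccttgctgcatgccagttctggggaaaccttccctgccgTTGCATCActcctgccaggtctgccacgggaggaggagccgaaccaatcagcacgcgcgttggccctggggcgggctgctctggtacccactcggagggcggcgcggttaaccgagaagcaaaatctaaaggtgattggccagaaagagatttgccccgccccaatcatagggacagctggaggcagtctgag
Asns: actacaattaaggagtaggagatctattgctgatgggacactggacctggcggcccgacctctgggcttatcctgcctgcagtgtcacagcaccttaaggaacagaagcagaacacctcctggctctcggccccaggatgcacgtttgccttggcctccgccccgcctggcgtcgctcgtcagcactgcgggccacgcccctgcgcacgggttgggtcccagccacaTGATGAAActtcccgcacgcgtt

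Counted from the start site, the Rsad2 match lies at -120 to -111, the 2 Ifit1 matches at -104 to -95 and -85 to -76, the Chac1 match at -193 to -186 and the Asns match at -23 to -16. In windows of 300 bases (250 before and 50 after the start), 475 of the 12447 tested genes with a promoter in RefSeq held the interferon element (3.82%), against 14 of 32 antiviral effector genes (43.8%) and 9 of 9 interferon-induced GTPase genes. The ATF4 element was found for 373 of all 12447 genes (3%) and for 7 of 20 genes of the ATF4 list (35%). Among genes with an unadjusted p under 0.05 for the difference, the interferon element was found for 2 of 141 on the higher side (1.42%) and 11 of 296 on the lower side (3.72%), and the ATF4 element for 5 of 141 (3.55%) and 14 of 296 (4.73%). A match is a description of the letters and not a binding site.

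The targeted genes came first as a check of the labels. Adnp read 137 and 111 CPM in the Adnp-set controls and 87.2 and 118 CPM in the shAdnp libraries, so the pairs overlapped; in the Pogz set it was 116 and 135 CPM in controls and 131 and 102 CPM with shPogz. Pogz read 54.4 and 53.1 CPM in the Pogz-set controls and 49.0 and 37.3 CPM in the shPogz libraries, which lay below them; in the Adnp set it was 55.7 and 44.9 CPM in controls and 42.2 and 50.02 CPM with shAdnp. Ash1l is the histone methyltransferase gene that the treatment label names in both hairpin groups. It read 364 and 301, 292 and 330, 243 and 288, and 299 and 273 CPM in the 4 groups. Its response was -0.10 with shAdnp (SE 0.14) and 0.11 with shPogz (SE 0.14), so a lowering was not shown in either. The difference of responses was 0.20 (SE 0.19), a value in which a lowering common to both hairpin groups would cancel. Against its own controls, Adnp changed by -0.27 with shAdnp (SE 0.19) and Pogz by -0.32 with shPogz (SE 0.16). In edgeR's quasi-likelihood test the adjusted p was 0.768 and 0.667, so a lowering of either target was not shown. The difference of responses was 0.17 (SE 0.26) for Adnp and -0.19 (SE 0.22) for Pogz, with unadjusted p of 0.542 and 0.417. The interval of the Adnp difference ran from -0.43 to 0.77 (95%), and that of Pogz from -0.70 to 0.31.

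No gene differed between the responses in edgeR's quasi-likelihood test after Benjamini-Hochberg adjustment over all tested genes: 0 of 17415 (0%), with a smallest adjusted p of 0.978. An unadjusted p under 0.05 was found for 612 genes (3.51%), 192 of them higher with shPogz (1.1%) and 420 lower (2.41%); 870.75 is the average number at that level if nothing differed. DESeq2 called 2 genes at adjusted p under 0.05, Igf2 and Lama1, both lower. The differences below are therefore given as values with their errors, and none is a called change. Counts of list members are read against these shares and against the split of all tested genes, 46.9% above 0 and 53.1% below, with a median of -0.02.

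The 2 responses share no library, and across 17415 genes their log2 fold changes had a Pearson correlation of 0.42 and a Spearman correlation of 0.25; the genes are not independent replicates. Of the 420 genes on the lower side, 350 were above their controls with shAdnp and below them with shPogz, 66 were above in both responses and 4 below in both. Among all 9256 tested genes with a difference below 0 these numbers were 3707, 2483 and 3066. Of the 192 on the higher side, 179 were below their controls with shAdnp and above them with shPogz, 11 were above in both and 2 below in both. Among all 8159 tested genes with a difference above 0 these numbers were 3492, 2110 and 2557. Which pair of libraries stood apart varied: among the 420 lower genes the shAdnp pair was the highest of the 4 groups in 111, the Adnp-set controls the lowest in 94, the shPogz pair the lowest in 93 and the Pogz-set controls the highest in 38. Over all tested genes these 4 patterns took 2.72%, 6.78%, 6.61% and 2.92%.

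**Figure D1:**
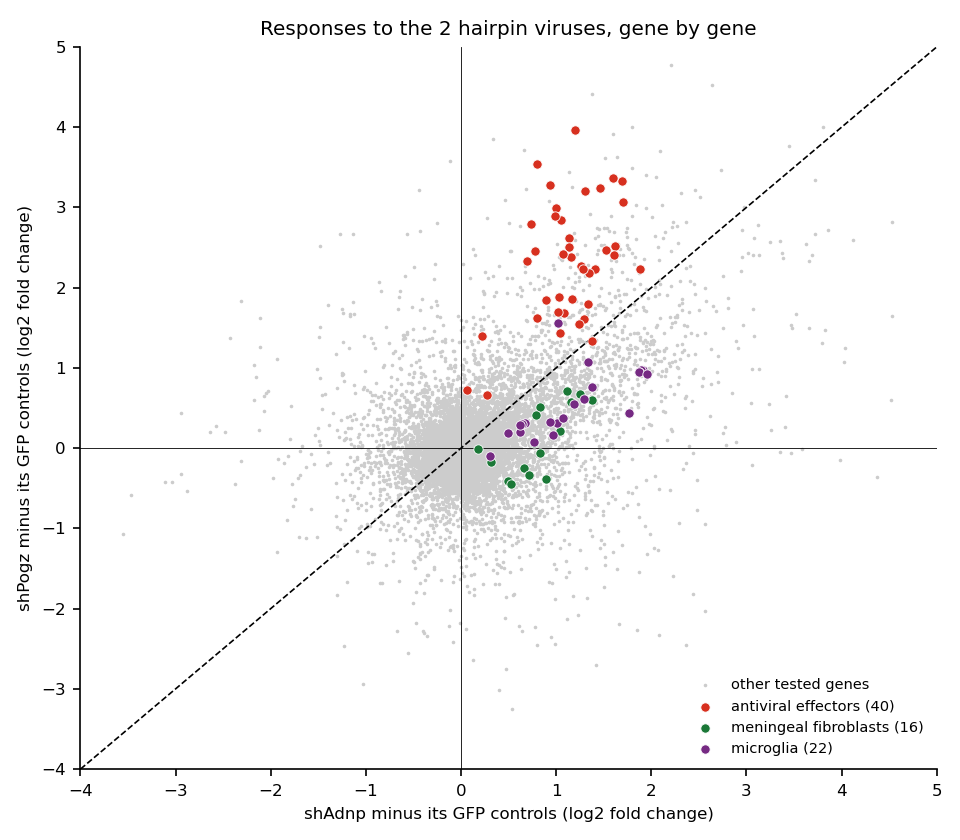
Each point is 1 tested gene, with the shAdnp response on the horizontal axis and the shPogz response on the vertical axis (log2 fold change against each set's own GFP controls); the dashed line marks equal responses and 18 genes lie outside the axes. The antiviral effectors (red) lie above the line in 39 of 40 cases, the meningeal fibroblast genes (green) below it in 16 of 16, and the microglial genes (purple) below it in 21 of 22.

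Of the 10 genes named on the lower side, Lama1 had the smallest p. Lama1, the laminin alpha 1 chain of basement membranes (chr17:67697127-67822645, GRCm38.p6), stood at 5.84 and 6.21 CPM in the Adnp-set controls, 14.1 and 11.6 CPM with shAdnp, 10.8 and 11.2 CPM in the Pogz-set controls and 9.85 and 9.59 CPM with shPogz. The Adnp-set controls were the lowest pair, the shAdnp libraries were the highest and the 2 pairs of the Pogz set lay close together. The difference was -1.27 (SE 0.22, interval -1.76 to -0.78, unadjusted p 0.00021, adjusted p 0.978). DESeq2 gave it an adjusted p of 0.0398.

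Igf2, an imprinted growth factor made in adult brain by the meninges and choroid plexus (chr7:142650768-142666816), was at 20.4 and 19.7 CPM in the Adnp-set controls, 37.3 and 37.4 CPM with shAdnp, 21.0 and 24.8 CPM in the Pogz-set controls and 20.7 and 14.4 CPM with shPogz. Here the shAdnp pair stood alone at the top and the control pairs lay between 19.7 and 24.8 CPM. The difference was -1.28 (SE 0.24, interval -1.82 to -0.75, unadjusted p 0.000382), and DESeq2 gave an adjusted p of 0.0327. Stab1, a scavenger receptor of perivascular macrophages, was at 22.5 and 22.7, then 40.4 and 37.9 CPM in the Adnp set, and at 29.7 and 35.3, then 28.9 and 32.3 CPM in the Pogz set (difference -0.88, SE 0.17, unadjusted p 0.000552). Its Adnp-set controls were the lowest pair and its shAdnp libraries the highest. Lamc3, the laminin gamma 3 chain, differed by -1.02 (SE 0.21), and Col6a2, a chain of collagen VI, by -1.03 (SE 0.23). Col6a2 read 11.4 and 10.5 CPM in the Adnp-set controls against 19.3 and 16.1 CPM with shAdnp, and 14.7 and 11.7 CPM in the Pogz-set controls against 10.9 and 9.98 CPM with shPogz.

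The meningeal fibroblast list, markers of the cells that line the brain surface, lay below 0 throughout: 16 of 16 tested genes, median -0.74, with 6 at an unadjusted p under 0.05 on the lower side (background 2.41%) and 8 whose 2 responses did not overlap on that side (background 8.56%). The median response was 0.81 with shAdnp and 0.03 with shPogz, and the shAdnp pair was the highest in 11 of 16 genes (background 2.72%). Slc6a20a, an amino acid transporter of the meninges, was at 10.99 and 11.3 CPM in the Adnp-set controls, 16.7 and 18.6 CPM with shAdnp, 11.6 and 15.0 CPM in the Pogz-set controls and 12.6 and 9.77 CPM with shPogz (difference -0.91, SE 0.25). Aldh1a2, which makes retinoic acid, differed by -0.88 (SE 0.26). With each library left out in turn the list median stayed between -0.88 and -0.57. The summed level of the 16 genes was 265 and 282 CPM in the Adnp-set controls, 451 and 450 CPM with shAdnp, 278 and 339 CPM in the Pogz-set controls and 334 and 375 CPM with shPogz. The part that the amount of meninges in the dissected pieces plays in this result was not tested.

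Genes of vessels and their walls were also mostly below 0. All 14 tested mural cell genes (pericytes and smooth muscle) were below 0, median -0.52. An unadjusted p under 0.05 on the lower side was found for 3 of them (background 2.41%). Among these were Tagln, a smooth muscle actin-binding protein (-1.01, SE 0.30), and Vtn, a pericyte matrix protein (-0.43, SE 0.17). Of 16 endothelial genes 13 were below 0, median -0.20 (-0.10 without the second shAdnp library, -0.12 without the first Pogz-set control and -0.31 without the first shAdnp library). On the lower side 3 were at an unadjusted p under 0.05 (background 2.41%). Cldn5, the tight junction claudin of brain vessels, was at 36.5 and 41.1 CPM in the Adnp-set controls, 47.0 and 54.7 CPM with shAdnp, 48.0 and 37.6 CPM in the Pogz-set controls and 38.3 and 34.2 CPM with shPogz (-0.63, SE 0.20). Collagen and laminin chains, 3 of which are also on the meningeal list, had a median of -0.33 over 25 genes, 19 of them below 0. On the lower side 5 were at an unadjusted p under 0.05 (background 2.41%). The collagen and laminin median was -0.13 without the second Pogz-set control. The medians of the meningeal, mural and endothelial lists thus lay on the same side.

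**Figure D2:**
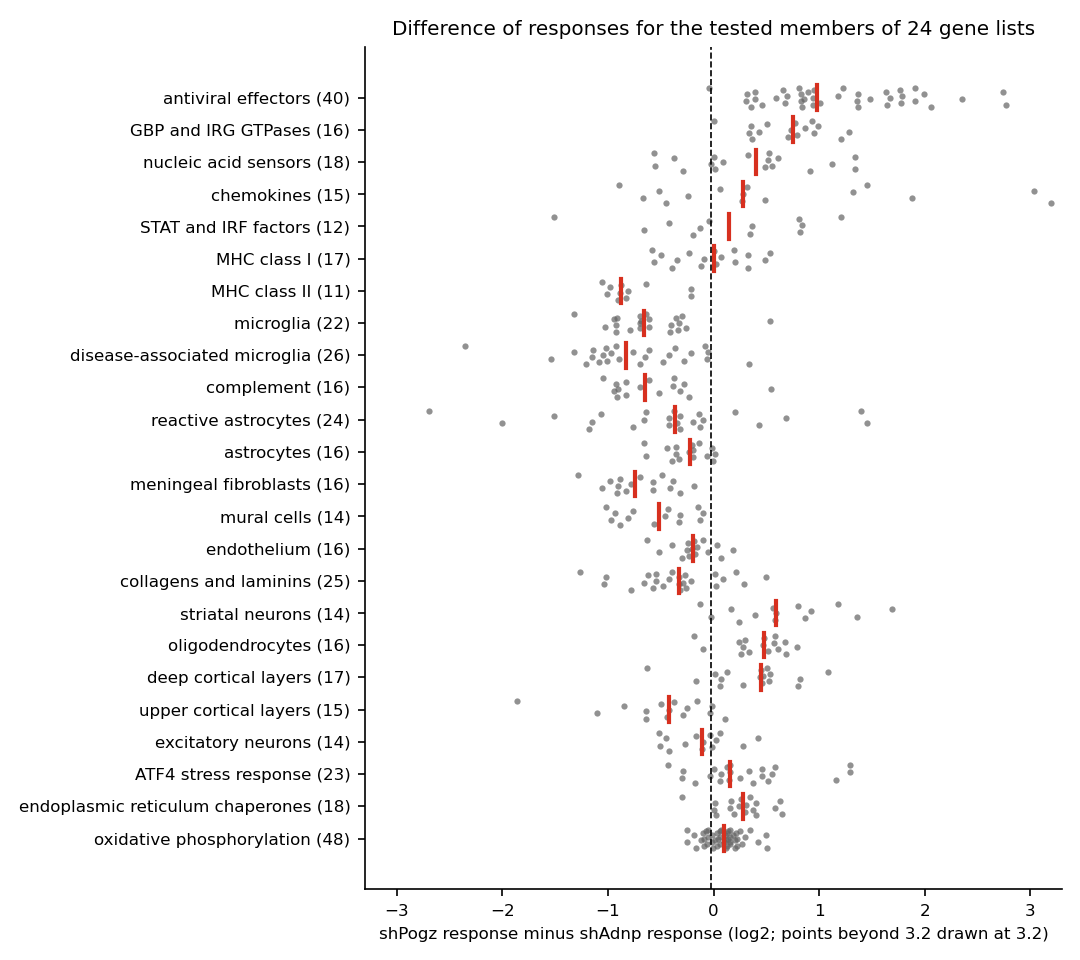
Each grey point is 1 tested gene of the named list (number tested in brackets), placed by its difference of responses in log2 units; red bars are list medians and the dashed line is the median of all tested genes (-0.02). Antiviral effectors (median 0.98) lie to the right, while MHC class II (-0.88), microglial (-0.66) and meningeal genes (-0.74) lie to the left.

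The antiviral effectors were further above their controls with shPogz than with shAdnp. Of 42 listed genes 40 were tested; the median response was 1.15 with shAdnp and 2.35 with shPogz, and the median difference was 0.98, with 39 of 40 above 0 (46.9% over all genes). None of the 40 reached an unadjusted p under 0.05 (1.1% over all genes on that side), and the 2 responses did not overlap in 3 of 40 (background 7.57%). Both shPogz libraries were above the other 6 in 38 of the 40 genes (background 5.64%).

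Rsad2, which encodes the antiviral enzyme viperin, shows how the libraries lie. It was at 4.10 and 9.79 CPM in the Adnp-set controls, 15.1 and 16.8 CPM with shAdnp, 9.41 and 7.22 CPM in the Pogz-set controls and 54.2 and 203 CPM with shPogz. Both shPogz libraries stood far above the rest, but they also stood far from each other. The difference was 2.77 (SE 1.07, interval -0.01 to 5.55, unadjusted p 0.0508). Ifit1, an RNA-binding inhibitor of viral translation, was at 6.51 and 24.9, 23.2 and 31.4, 17.8 and 14.6, and 82.5 and 293 CPM in the same order of groups (2.75, SE 1.25). Mx2, a GTPase that blocks viruses, was at 1.64 and 4.63, 4.82 and 5.62, 3.43 and 4.36, and 15.1 and 39.5 CPM (2.06, SE 0.88). In each of these genes the second shPogz library was the highest of the 8 and the first Adnp-set control the lowest.

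The size of this difference moved most with single libraries of the shPogz pair and of the Adnp-set control pair. The median over the antiviral list was 0.19 without the second shPogz library, 0.36 without the second Adnp-set control, 1.55 without the first Adnp-set control and 1.62 without the first shPogz library. With both ends of axis 1 left out it was 0.62. The direction held in each case. In mean log2 CPM over the list, centred on the 8 libraries, the Adnp-set controls were at -1.95 and -0.53, the shAdnp libraries at -0.16 and 0.27, the Pogz-set controls at -0.56 and -0.39 and the shPogz libraries at 0.90 and 2.42.

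**Figure D3:**
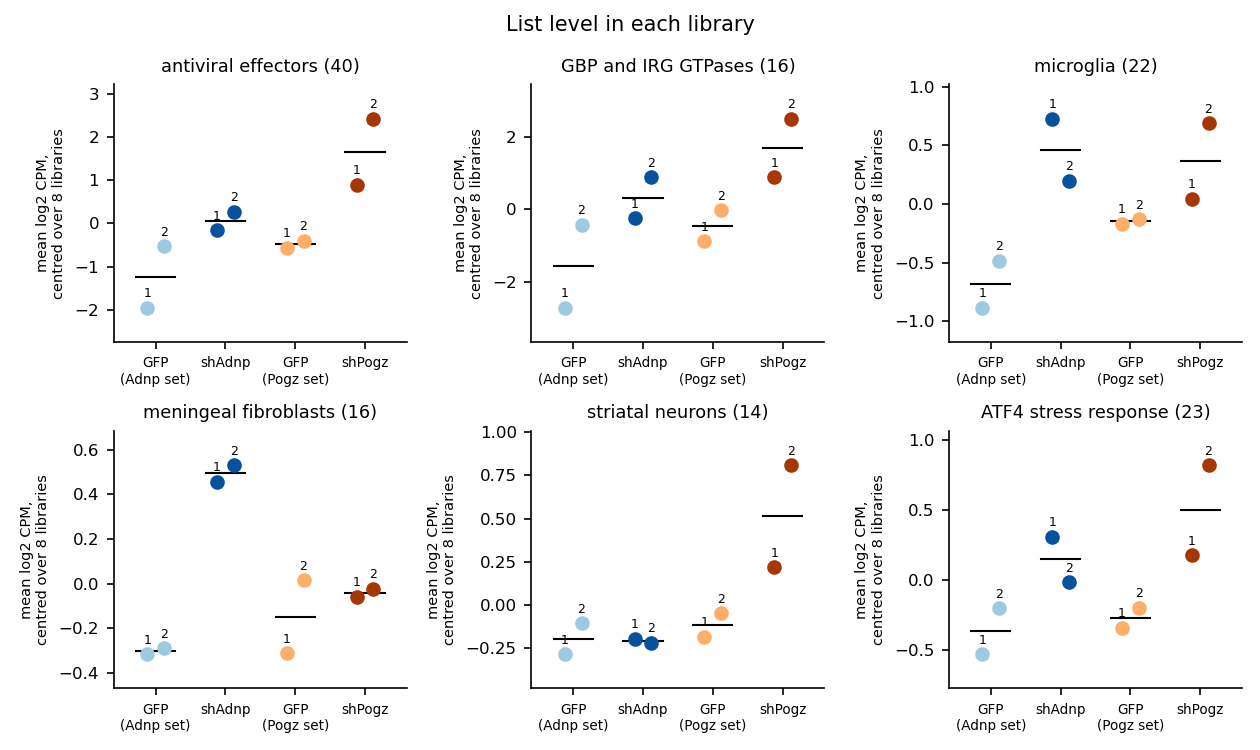
Each panel shows 1 gene list; points are libraries (numbered by replicate) placed by the list's mean log2 CPM after centring each gene on its mean over the 8 libraries, and black bars are group means. The antiviral panel has the first Adnp-set control at -1.95 and the second shPogz library at 2.42, while the meningeal panel has the 2 shAdnp libraries together at the top (0.46 and 0.53).

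Upstream of the effectors the values were smaller. Among 18 tested nucleic acid sensors the median difference was 0.41, with 13 above 0; it was -0.38 without the second shPogz library and -0.14 without the second Adnp-set control. Ifih1 and Ddx58, which encode the RNA sensors MDA5 and RIG-I, both differed by 1.34 (SE 0.75 and 0.77). Ifih1 was at 12.5 and 24.2 CPM in the Adnp-set controls, 27.5 and 29.9 CPM with shAdnp, 20.6 and 20.5 CPM in the Pogz-set controls and 44.2 and 117 CPM with shPogz. Ligands could hardly be read: of 11 interferon ligand genes only Ifng passed the filter, at 0 to 1.81 CPM. The 9 genes for interferon receptors and their kinases had a median of -0.18, with 3 above 0, and of 0.07 without the first shAdnp library and 0.12 without the first shPogz library.

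The 12 STAT and IRF factors were split, 6 above 0 and 6 below, median 0.15, and the median was below 0 without the second Adnp-set control (-0.31), the second shPogz library (-0.18) or the first shAdnp library (-0.06). Stat2, a subunit of the complex that binds the interferon element, was at 23.3 and 30.7, 30.6 and 51.2, 31.1 and 37.9, and 55.5 and 131 CPM in the 4 groups (0.83, SE 0.67). Irf4, a factor of lymphocytes and cortical neurons, lay on the other side (-1.51, SE 0.46, unadjusted p 0.00902). Its 4 groups read 0.719 and 1.27, 1.81 and 1.98, 7.18 and 6.86, and 5.80 and 3.51 CPM, so the whole Pogz set stood above the whole Adnp set. Usp18, the feedback inhibitor of the interferon receptor, differed by 2.15 (SE 1.20).

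Genes best known for their induction by interferon gamma gave less stable values. The 16 tested guanylate-binding and immunity-related GTPases, which attack vacuoles that hold pathogens, all had differences above 0 (median 0.75; responses 1.64 with shAdnp and 2.32 with shPogz), none at an unadjusted p under 0.05. That direction did not survive leaving out single libraries: the median was -0.85 without the second Adnp-set control and -0.34 without the second shPogz library. Gbp7 was at 11.7 and 31.7, 39.7 and 69.8, 27.9 and 40.8, and 79.8 and 257 CPM, and its difference of 0.95 (SE 1.10) became -0.12 without the second shPogz library. MHC class I genes had a median of 0.01 over 17 genes, 9 above 0, which ran from -0.75 to 0.46 with single libraries left out, and Psme2, a proteasome activator subunit of that pathway, differed by 0.53 (SE 0.41).

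MHC class II genes, which present antigen to helper T cells, lay on the opposite side: 0 of 11 above 0, median -0.88, with median responses of 1.93 with shAdnp and 1.10 with shPogz and none at an unadjusted p under 0.05. The median direct difference between the 2 hairpin groups was 0.58, higher with shPogz, and that between the 2 control pairs 1.47, higher in the Pogz set. H2-Ob, a regulator of class II peptide loading, was at 0.458 and 1.18, 1.77 and 2.77, 5.66 and 7.21, and 6.97 and 12.5 CPM, so both Pogz-set pairs were above both Adnp-set pairs (difference -0.88, SE 0.64). Without the first Adnp-set control the list median was -0.06 and without the second it was -2.26. Chemokines had a median of 0.28 over 15 genes, 10 above 0, and of -1.20 without the second Adnp-set control and -0.57 without the second shPogz library. Ccl2, which attracts monocytes, was at 0.164 and 0.780, 2.07 and 3.87, 0.495 and 1.31, and 8.89 and 35.9 CPM (1.88, unadjusted p 0.253); Ccl2 was named after its values were seen. Blood leukocyte markers summed to 16.7 and 55.3 CPM in the Adnp-set controls, 77.9 and 137 CPM with shAdnp, 78.8 and 149 CPM in the Pogz-set controls and 154 and 332 CPM with shPogz, and 18 of their 25 tested genes had a difference below 0. Their median of -0.56 was 0.20 without the first Adnp-set control, and 0.07 without the second Pogz-set control or the second shAdnp library. The leukocyte markers' median direct difference between the hairpin groups was 1.22, and that between the control pairs 1.85. The part of leukocytes in the MHC and chemokine values was not tested.

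Microglial genes were further above their controls with shAdnp than with shPogz. Of 22 markers 21 were below 0, median -0.66 (responses 1.05 and 0.41), with 2 at an unadjusted p under 0.05 on the lower side (background 2.41%). In 18 of the 22 the Adnp-set controls were the lowest pair of the 8 libraries (background 6.78%). Itgam, the CD11b integrin chain, was at 29.8 and 38.4 CPM in the Adnp-set controls, 79.3 and 64.4 CPM with shAdnp, 50.9 and 59.5 CPM in the Pogz-set controls and 60.3 and 83.8 CPM with shPogz (-0.69, SE 0.27). The 2 hairpin groups overlapped and the control pairs did not. P2ry12, a purinergic receptor of resting microglia, was at 44.8 and 43.9, 59.5 and 49.8, 52.1 and 50.7, and 51.7 and 44.3 CPM (-0.40, SE 0.17). The median direct difference between the 2 hairpin groups over the 22 genes was -0.02, and that between the 2 control pairs 0.62. Left-out libraries moved the list's median difference to between -0.96 (second shPogz library) and -0.34 (first shAdnp library). Summed, the list was at 739 and 991 CPM, 2520 and 1666 CPM, 1274 and 1325 CPM, and 1497 and 2502 CPM in the 4 groups.

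Related programmes lay on the same side. Of 26 genes of disease-associated microglia, a state that takes up lipid and debris, 25 were below 0, median -0.83. On the lower side 2 were at an unadjusted p under 0.05 (background 2.41%), and without the first shAdnp library the median was -0.24. Apoe, the lipid carrier, was at 968 and 1069, 2478 and 1331, 1341 and 1133, and 1119.8 and 1157 CPM (-1.02, SE 0.36), with the first shAdnp library alone at the top. Cd14, the co-receptor for bacterial lipopolysaccharide, was at 1.64 and 2.36, 7.61 and 4.39, 3.32 and 3.44, and 2.71 and 4.30 CPM (-1.54, SE 0.48). Fc receptor genes were below 0 in 11 of 11 (median -0.52), complement genes in 15 of 16 (median -0.65), lysosome genes in 17 of 21 (median -0.37) and Toll-like receptors in 11 of 15 (median -0.58). Without the first shPogz library the Fc receptor median was -0.20, the complement median -0.27 and the Toll-like receptor median 0.00, and without the first shAdnp library the lysosome median was 0.02. The median direct difference between the 2 hairpin groups was 0.36 (Fc receptors), 0.45 (complement), 0.37 (Toll-like receptors), 0.03 (lysosome) and -0.20 (disease-associated microglia). Between the 2 control pairs these medians were 0.71, 0.99, 0.80, 0.32 and 0.45. The lists share members, such as Itgam (microglial and complement) and Cd14 (disease-associated and Toll-like). The kinase gene Syk differed by -1.05 (SE 0.35). Cd33, a sialic acid-binding inhibitory receptor of microglia, was at 4.58 and 5.35, 11.5 and 10.3, 8.31 and 10.7, and 9.54 and 9.95 CPM (-1.10, SE 0.25): 3 of the 4 groups lay near each other and the Adnp-set controls lay below. The lysozyme gene Lyz1 was at 0.294 and 0.541, 3.01 and 2.81, 2.02 and 1.32, and 1.12 and 2.28 CPM (-2.75, SE 0.63), so its Adnp-set controls were the lowest pair and its shAdnp libraries the highest.

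**Figure D4:**
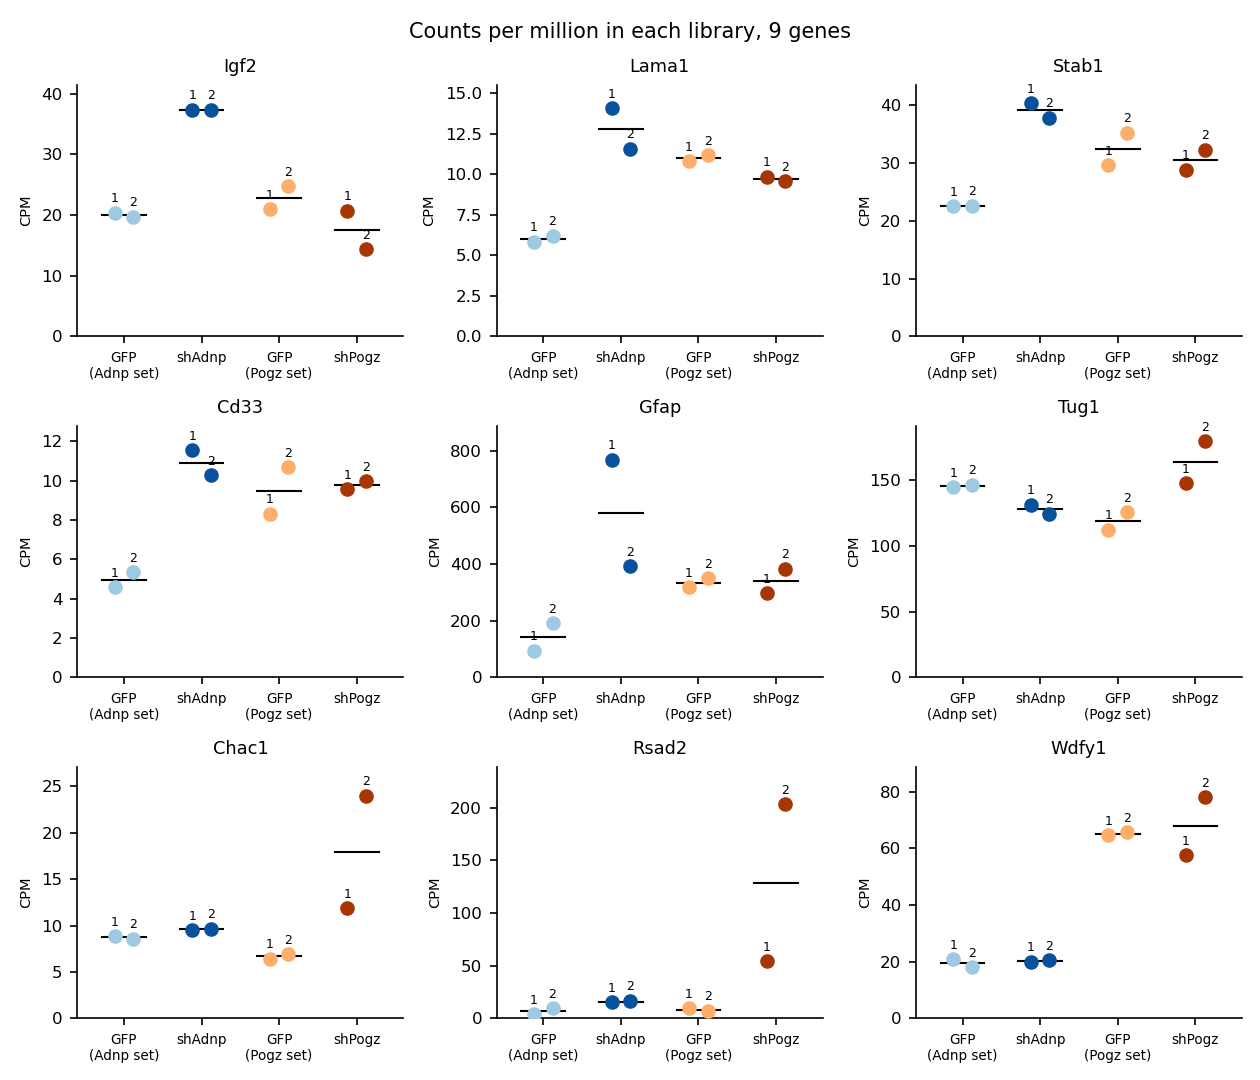
CPM of 9 genes in each of the 8 libraries (points, numbered by replicate), with bars at group means. In Cd33 the 2 Adnp-set controls (4.58 and 5.35) lie below the other 6 libraries, in Igf2 the 2 shAdnp libraries (37.3 and 37.4) lie above them, in Rsad2 the shPogz libraries (54.2 and 203) do, and in Wdfy1 the sets differ but the responses do not.

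Astrocyte genes were mildly below 0. Of 16 markers 15 were below, median -0.22, with 3 at an unadjusted p under 0.05 on the lower side (background 2.41%). These were Aldh1l1, a folate enzyme (-0.66, SE 0.19), the water channel gene Aqp4 (-0.64, SE 0.19) and Mlc1 (-0.44, SE 0.16). Aqp4 was at 140 and 167 CPM in the Adnp-set controls, 241 and 211 CPM with shAdnp, 230 and 199 CPM in the Pogz-set controls and 189 and 216 CPM with shPogz. Reactive astrocyte genes had a median of -0.36, with 19 of 24 below 0, and of -0.01 without the first shPogz library. For these genes the median direct difference between the 2 hairpin groups was 0.27, and that between the 2 control pairs 0.73. Gfap, the intermediate filament of reactive astrocytes, was at 93.7 and 191, 767 and 393, 318 and 350, and 296 and 383 CPM (-2.01, SE 0.63). The Adnp-set controls were the lowest pair and the shAdnp libraries the highest. B3gnt5, a glycosyltransferase gene of the same list, went the other way at low levels (1.40, SE 0.58). It was at 1.34 and 1.78, 1.83 and 1.64, 1.77 and 3.21, and 4.68 and 10.1 CPM in the 4 groups.

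On the higher side the genes leading by p were of mixed function. Tug1, a long noncoding RNA with the smallest p of these genes, was at 145 and 147 CPM in the Adnp-set controls, 131 and 124 CPM with shAdnp, 112 and 126 CPM in the Pogz-set controls and 148 and 179 CPM with shPogz (0.65, SE 0.17, unadjusted p 0.00359). Pnck, a calcium/calmodulin-dependent kinase gene, was at 48.5 and 52.6, 38.6 and 42.0, 47.1 and 45.5, and 53.8 and 52.3 CPM (0.53, SE 0.14). Both had shAdnp below and shPogz above their controls. Bex4 (0.87, SE 0.23), Folh1, which encodes a glutamate carboxypeptidase (0.94, SE 0.26), Taf9b, a subunit of the general transcription machinery (0.56, SE 0.16), and Aida (0.63, SE 0.18) were also among the 10 named on this side. Ndufv2, a complex I subunit, was at 120 and 119, 95.3 and 87.1, 103 and 101, and 104 and 117 CPM (0.51, SE 0.15), and over the oxidative phosphorylation list 33 of 48 genes were above 0, with a median of 0.10 (0.03 without the second Adnp-set control) and 2 at an unadjusted p under 0.05 (background 1.1%).

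Striatal medium spiny neuron markers were above 0 in 12 of 14 tested genes. Their median was 0.59 (responses -0.06 and 0.54), with 3 at an unadjusted p under 0.05 (background 1.1%). Pde10a, a cyclic nucleotide phosphodiesterase of these neurons, was at 116 and 84.9 CPM in the Adnp-set controls, 65.5 and 69.6 CPM with shAdnp, 83.5 and 71.9 CPM in the Pogz-set controls and 90.8 and 145 CPM with shPogz (1.17, SE 0.33). Syndig1l was at 0.769 and 1.11, 1.48 and 0.756, 0.495 and 0.995, and 1.92 and 4.03 CPM (1.69, SE 0.73). The second shPogz library was the highest in both, and the list median was 0.23 without it. Summed, the list was highest in that library, at 632 CPM, against 478 to 574 CPM in the other 7. The share of striatum in the pieces was not tested.

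Layer and myelin markers moved with single libraries. Deep-layer genes had a median of 0.45 (15 of 17 above 0) and upper-layer genes one of -0.42 (14 of 15 below 0). The summed deep-layer level was 464 CPM in the second shAdnp library and 712 to 870 CPM in the other 7, and the summed upper-layer level was highest in that same library, at 1470 CPM. Tle4, a deep-layer corepressor gene, was at 117 and 115, 113 and 63.1, 100 and 101, and 98.1 and 113 CPM. Without the second shAdnp library the deep-layer median was -0.07 and the upper-layer median -0.04. Oligodendrocyte genes had a median of 0.47 (14 of 16 above 0), which was 0.07 without the second shAdnp library and 1.04 without the first; their summed level was 2455 CPM in the second shAdnp library and 5599 CPM in the second shPogz library.

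Stress genes gave smaller medians. The ATF4 list had a median of 0.15 (responses 0.29 and 0.58), 18 of 23 above 0. At an unadjusted p under 0.05 it had 3 genes on the higher side (background 1.1%) and 1 on the lower (background 2.41%). Chac1, a glutathione-degrading enzyme gene and ATF4 target whose promoter is shown above, was at 8.86 and 8.60 CPM in the Adnp-set controls, 9.47 and 9.68 CPM with shAdnp, 6.44 and 6.91 CPM in the Pogz-set controls and 11.9 and 23.99 CPM with shPogz (1.29, SE 0.40, unadjusted p 0.0106). The shPogz pair was the highest and the other 6 libraries lay between 6.44 and 9.68 CPM. Asns, asparagine synthetase, was at 141 and 150, 140 and 114, 109 and 121, and 133 and 154 CPM (0.51, SE 0.18), while Slc7a5, an amino acid transporter gene, lay on the lower side (-0.43, SE 0.13). The ATF4 median was -0.05 without the second shPogz library and -0.01 without the second shAdnp library.

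Chaperones of the endoplasmic reticulum were above 0 in 17 of 18, median 0.28. Manf, a secreted stress protein, differed by 0.58 (SE 0.25, unadjusted p 0.0472), and Hspa5, the chaperone BiP, was at 366 and 450, 438 and 309, 349 and 314, and 396 and 556 CPM (0.65, SE 0.30). Their list median stayed above 0 with each library left out, between 0.13 and 0.49.

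**Figure D5:**
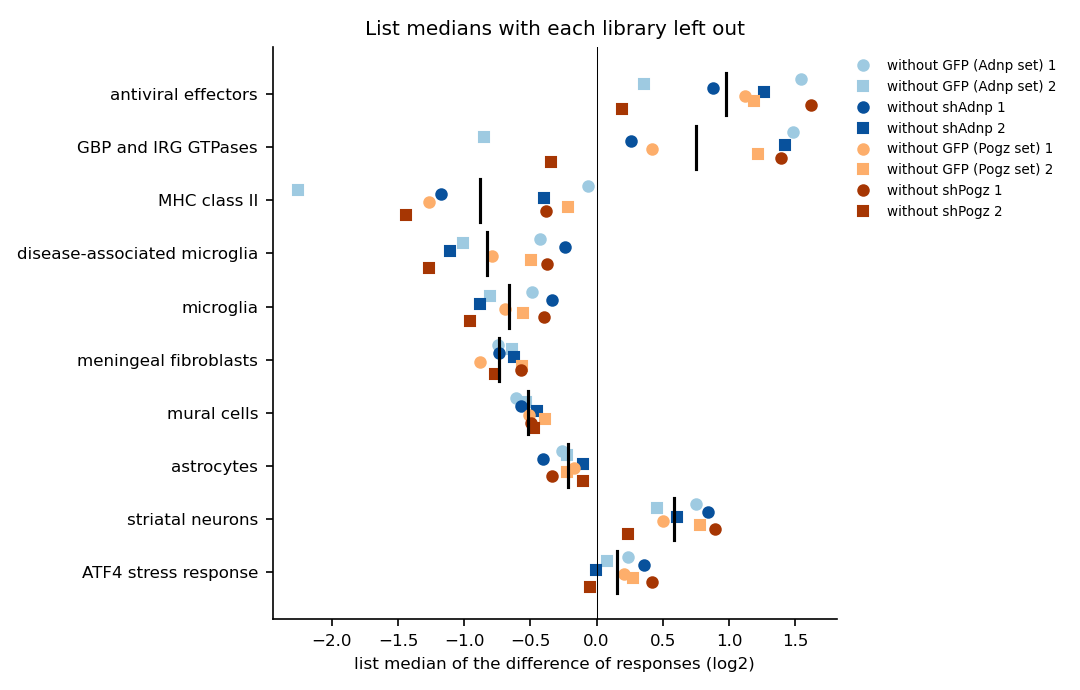
For 10 gene lists, each coloured marker is the list's median difference of responses (log2) with 1 of the 8 libraries left out, and black bars are the medians with all 8. The meningeal median stays between -0.88 and -0.57, whereas that of the GBP and IRG GTPases runs from -0.85 to 1.48.

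Neuronal lists had medians a little below that of all genes. At an unadjusted p under 0.05 there were few genes in these lists. The presynapse gene Unc13c (0.43) and the sodium and calcium channel gene Scn4b (0.47) were on the higher side (background 1.1%). The potassium channel gene Kcnj4 (-0.44) was on the lower (background 2.41%), and the glutamate postsynapse and GABA synapse lists had 0. The glutamate postsynapse (-0.23), presynapse (-0.20), potassium channel (-0.18), sodium and calcium channel (-0.17) and GABA synapse (-0.06) medians lay within 0.23 of 0. Without the second shAdnp or the second shPogz library, each of these medians lay between -0.05 and 0.11. Without the first shAdnp or the first shPogz library, each lay between -0.43 and -0.17. Single genes with the smallest p in such lists included Neurod2, a factor of excitatory neurons, at 66.1 and 67.1, 76.0 and 69.2, 61.8 and 58.4, and 51.6 and 44.4 CPM (-0.45, SE 0.16), and the peptide gene Npy (-0.61, SE 0.20). Activity-dependent genes were below 0 in 16 of 22, median -0.19. At an unadjusted p under 0.05 there were 4 on the lower side (background 2.41%) and 1 on the higher (background 1.1%). Egr4, a zinc-finger factor induced by firing, was at 5.12 and 8.09, 9.96 and 12.3, 7.60 and 6.15, and 5.54 and 4.48 CPM (-1.21, SE 0.35), and Egr3 differed by -0.69 (SE 0.24). Btg2, an antiproliferative gene of the same list, was the 1 on the higher side (0.55, SE 0.20). The activity median was 0.08 without the first Adnp-set control and 0.06 without the first Pogz-set control. Clock genes were below 0 in 16 of 17, median -0.19, which was -0.06 without the first Pogz-set control, -0.30 without the first shAdnp library and -0.32 without the first shPogz library.

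Chromatin genes tied to the 2 targets had medians near that of all genes. Genes for binding partners of ADNP and POGZ had a median of 0.02, with 15 of 27 above 0, and autism-risk regulators one of -0.09, with 8 of 27 above 0; neither list had a gene at an unadjusted p under 0.05. The second median was 0.02 without the second Adnp-set control and 0.01 without the second shPogz library. Hist1h1c, which encodes a linker histone, was among the 10 leading genes on the lower side, at 32.9 and 38.7, 58.0 and 53.2, 52.0 and 51.9, and 41.2 and 47.3 CPM (-0.87, SE 0.17, unadjusted p 0.000557). Its Adnp-set controls were the lowest pair and its shAdnp libraries the highest.

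Direct comparisons of the 2 sets show what cancels. The control pairs differed in 1 of 17415 genes at adjusted p under 0.05 (0.00574%): Wdfy1, an endosomal adaptor gene, at 20.8 and 18.1 CPM in the Adnp-set controls against 64.7 and 65.6 CPM in the Pogz-set controls (1.74, SE 0.15, adjusted p 0.0112 in edgeR's quasi-likelihood test). The hairpin libraries held the same gap, 20.03 and 20.5 CPM against 57.6 and 78.1 CPM, and the difference of responses was -0.00021 (SE 0.20, interval -0.45 to 0.45). The shPogz and shAdnp libraries compared directly differed in 4 genes (0.023%): Wdfy1, H2-Q10 and Gm11127 were higher with shPogz and Rps2 lower. Values of histocompatibility and ribosomal protein genes with near-identical copies are uncertain.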

How the data were processed

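RNA-seq of mouse prefrontal cortex was analysed in 8 libraries, 2 for each of 4 groups. Stranded total RNA libraries were made from 1 µg after ribosomal RNA depletion, per the labels' protocols. The file deposited by the authors holds raw counts of reads for each gene symbol. STAR, featureCounts, DESeq2 and the build mm10 are named in the submitters' processing notes, whereas Cutadapt and TopHat2 appear in the labels' protocols; neither source used here states versions or the strand setting, so overlapping and antisense genes are uncertain. Of the table's rows, 25 symbols turned into calendar serial numbers (0.306% to 0.337% of counts) and 2 blank ones were left out.

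Genes were kept with edgeR's filterByExpr (minimum count 10), scaled by trimmed mean of M-values and fitted with edgeR 4.0.16 (R 4.3.3) quasi-likelihood, 1 mean per group, over all 8 libraries, with Benjamini-Hochberg adjustment over 17415 genes and calls at adjusted p under 0.05. Residual degrees of freedom were 4 and the common biological coefficient of variation was 0.171. Standard errors are the log2 fold change divided by the square root of the F statistic, and 95% intervals come from them. Whether the duplicates are separate animals is not stated beyond the word biological, so p-values measure the spread between these libraries, which may be technical in part.

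The members and the 60 gene lists were chosen with earlier results of these data known. Genes named are the 3 targets, up to 10 in each direction (with none at adjusted p under 0.05, those with the smallest unadjusted p among genes of mean CPM 1 or more whose responses do not overlap), and the 3 smallest-p members of each list; other genes in the text are checks of tissue, DESeq2 or direct-comparison calls, or were chosen after their values were seen. Promoters are from RefSeq (GRCm38.p6); 16147 tested genes matched RefSeq by symbol. The fit was tested on simulated counts. Alternatives were DESeq2 1.42.0, limma-voom (limma 3.58.1), other scalings, filters and covariates, replicate blocks, and each library left out. A further 1, chosen after seeing the data, left out both ends of axis 1. The count filter was run again in each fit with 1 library left out (17709 to 17864 genes tested). The tested members of a list can therefore differ between these fits.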

Additional observations from a re-analysis of the deposited data

How the results depend on the processing

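The number of genes differing between the responses at adjusted p under 0.05 was 0 with all alternatives except DESeq2 (2) and 2 of the 8 fits that left out 1 library, whose counts ran from 0 to 4: 4 without the first shAdnp library (Glra2, Hs3st4, Nxph3, Syt6) and 1 without the second Pogz-set control (Snora74a). At an unadjusted p under 0.05 the count ran from 317 (without the first Adnp-set control) to 1214 (without the first shAdnp library), and was 372 and 973 without the first and second Pogz-set control, 1174 without the first shPogz library and 309 without both ends of axis 1. A filter of 1 CPM in 2 libraries gave 537 genes, 238 higher and 299 lower. Where a library is left out, the lone library of that group is assumed to vary like the others. Hs3st4, Nxph3 and Syt6 are on the deep-layer list, whose summed level was lowest in the second shAdnp library (464 CPM), the one left in that fit. With all 8 libraries their differences were 0.45, 0.46 and 0.80. The part of that library's layer content in these calls was not tested. With a replicate block the difference had 0 genes at adjusted p, and 483 (block within each set) or 588 (block common to both sets) at unadjusted p.

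The single responses and set comparisons depended more on the model. The main edgeR fit called 0 of 17415 genes for shAdnp, 0 for shPogz, 1 between the controls and 4 between the hairpins. In its quasi-likelihood test the smallest adjusted p was 0.295 for shAdnp and 0.667 for shPogz. DESeq2 called 420 genes for shAdnp, 100 for shPogz, 73 between the controls and 70 between the hairpins. The replicate block within each set gave 175, 31, 11 and 9, and the block common to both sets 144, 26, 18 and 25. The labels do not say that a replicate number marks a shared animal or batch, and deviations of same-numbered libraries correlated at -0.0085 and 0.047 within the sets and at -0.08 to 0.31 across them, so the numbers were not taken to pair the libraries. Leaving out 1 library gave 0 to 8, 0 to 153, 0 to 6 and 0 to 17. Without both ends of axis 1 shPogz had 8 genes and the controls 3; without a count filter, and at adjusted p under 0.10, the controls had 6; limma-voom and a filter of 1 CPM gave 1 gene between the hairpins.

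With 1 library left out, list medians ran from 0.19 to 1.62 (antiviral effectors), -0.85 to 1.48 (GBP and IRG GTPases), -2.26 to -0.063 (MHC class II), -1.27 to -0.24 (disease-associated microglia), -0.96 to -0.34 (microglia), -0.88 to -0.57 (meningeal fibroblasts), -0.41 to -0.10 (astrocytes) and 0.23 to 0.90 (striatal neurons, 0.30 without both ends of axis 1). Of 82 named genes 77 kept their direction in all 19 alternatives. The others reversed with 1 library out: Adnp without the first shAdnp library (range -0.036 to 0.42), Ifng without the second (-5.82 to 0.35), and Gbp9 (-0.059 to 1.56), Gbp7 (-0.12 to 1.60) and Psme2 (-0.0079 to 0.96) without the second shPogz library. The 2 libraries per group and a median standard error of 0.24 limit what could be detected, and genes under about 10 counts were not tested.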

Other observations

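Proliferation genes were above their controls in both responses (medians 0.90 with shAdnp and 0.66 with shPogz), with a median difference of -0.18, which was 0.30 without the second Pogz-set control, 0.14 without the first shPogz library and -0.59 without the first Pogz-set control. Replication histones had responses of 0.25 and 0.17 and a difference of -0.13, which was 0.37 without the second Pogz-set control. Cholesterol synthesis enzymes were below their controls in both (-0.25 and -0.22), with a difference of 0.05 (-0.08 to 0.14 with single libraries left out) and none of 21 genes at an unadjusted p under 0.05. Ribosomal protein genes had medians of 0.09 and 0.10 and a difference of -0.02 (-0.14 to 0.15 with single libraries left out).

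Ttr, the transthyretin gene of choroid plexus, had the most negative difference of that list (-4.60, unadjusted p 0.0154) at very low levels: 0.0491 and 0.223 CPM in the Adnp-set controls, 1.46 and 0.180 CPM with shAdnp, 0.424 and 1.34 CPM in the Pogz-set controls and 0.234 and 0.210 CPM with shPogz. The 1 shAdnp library and the 1 Pogz-set control above 1 CPM carry that value.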
